A study of Mus musculus with 9 samples.

Results

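The Rab GTPases and the TBC domain proteins, many of which switch Rabs off, were followed in mouse embryonic stem (ES) cells given a microRNA mimic. The genes were chosen by name: a probe set counted if its annotation gave exactly 1 gene symbol, and that symbol was Rab with a number and at most a letter after it, or began with Tbc1d. This gave 93 probe sets for 89 genes, 59 Rab and 30 Tbc1d, out of 19938 genes named on the array. All groups were ES cells of genotype Dgcr8 -/-, which lack a protein needed to process most microRNA precursors, and all were kept without LIF, the cytokine that sustains ES cells, for the 12 h between transfection and harvest. The cells received 50 nM of a let-7c mimic, 50 nM of a miR-294 mimic, or a mock transfection, with 3 biological replicates and 1 array each, 9 arrays in all. No group received a control mimic, so an effect of a mimic's own sequence and an effect of transfected RNA as such cannot be told apart. The labels do not say whether the replicates came from separate cultures, from 1 clone or from several.

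A Rab protein works as a switch on the surface of a membrane. Exchange factors load it with GTP, the active Rab then recruits effectors such as tethers and motor adaptors that move and fuse vesicles, and a GTPase-activating protein, usually one with a TBC domain, ends the cycle by speeding up GTP hydrolysis. Each organelle carries its own Rabs, which makes the family a map of membrane traffic, and much of what is known of single members comes from human and other mammalian cell lines. let-7 microRNAs are abundant in differentiated cells, while miR-294 belongs to a cluster that is abundant in ES cells.

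A microRNA finds its target RNAs mainly through its seed, here bases 2 to 8, so the mature RNAs of both mimic names are shown with the seed in capitals, each with a relative of the same seed. The sequences are those of RefSeq (GRCm38.p6, 5′ to 3′). The labels do not name the arm, and the guide arms were taken.
mmu-let-7c-5p: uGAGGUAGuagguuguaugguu
mmu-let-7a-5p: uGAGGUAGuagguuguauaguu
mmu-miR-294-3p: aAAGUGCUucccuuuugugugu
mmu-miR-302b-3p: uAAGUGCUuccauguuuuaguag
let-7c-5p is encoded at chr15:85706616-85706637 and chr16:77599672-77599693, both on the plus strand, and its seed is shared by 11 mature mouse microRNAs in the table used. miR-294-3p lies at chr7:3220691-3220712 on the plus strand, and its seed is shared by 5, all of the miR-290 and miR-302 groups. The seeds GAGGUAG and AAGUGCU differ, and target sites in the RNAs of the Rab and Tbc1d genes were not searched for here.

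Values were read as log2 levels of probe sets, a scale taken from their range since no header states it, and array medians lay between 7.36 and 7.41. The lowest correlation between replicate arrays was 0.995. All 10 ES cell markers checked were above the array's 40th percentile on the 3 arrays of each group, in which the mean over that list was 11.63 to 11.64 in let-7c cells, 11.90 to 11.98 in miR-294 cells and 11.80 to 11.85 in mock cells. Of 7 feeder fibroblast markers, 4 were above that level in each group, with list means of 6.66 to 6.93 in let-7c cells, 6.69 to 6.82 in miR-294 cells and 6.56 to 6.70 in mock cells. On all 3 arrays of a group, 3 of 6 primitive endoderm markers were above it in let-7c cells, 4 in miR-294 cells and 3 in mock cells, and 3 of 5 trophoblast and 3 of 4 neurectoderm markers were above it in each group. The means over the ES cell list did not overlap between any of the groups, though its members did not move alike. With miR-294, Pou5f1, Nanog and Fgf4 averaged under mock and the other members above it. With let-7c, Tdgf1 and Dppa5a averaged above mock and the other members at or under it. The means over the neurectoderm and primitive endoderm lists did not overlap between let-7c and mock. The neurectoderm means were 8.01 to 8.12 in let-7c cells, 7.80 to 7.94 in miR-294 cells and 7.78 to 7.86 in mock cells. Within the neurectoderm list Nes averaged 8.55, 7.85 and 7.79 in the same order of groups. Its other members moved less: Sox1 averaged 8.94, 8.87 and 8.78, Pax6 8.77, 8.65 and 8.75, and the dim Zic1 6.05, 6.09 and 6.02. The trophoblast means were 7.89 to 8.06 in let-7c cells, 7.86 to 7.90 in miR-294 cells and 7.86 to 7.95 in mock cells. Its markers did not move alike: Krt8 averaged 10.73, 10.02 and 10.32, and Tfap2c 8.57, 8.72 and 8.88. Hand1 averaged 7.41, 7.52 and 7.36, and the dim Cdx2 and Elf5 averaged 6.68, 6.78 and 6.58 and 6.42, 6.39 and 6.37. The primitive endoderm means were 7.175 to 7.260 in let-7c cells, 7.162 to 7.222 in miR-294 cells and 7.034 to 7.167 in mock cells. Between let-7c and mock, Gata4 differed most in that list (8.42 against 8.11), and only Foxa2 averaged under mock (7.61 against 7.65). The part that other cells play in the results was not tested. Fewer cells of a type and less RNA per cell cannot be told apart on bulk RNA.

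Of the 89 genes, 79 were tested, 51 Rab and 28 Tbc1d; a gene was tested if at least 3 of the 9 arrays lay above their own 40th percentile, a level of 6.84 to 6.90. The 10 genes left out as dim were Rab3a, Rab3c, Rab7b, Rab19, Rab27b, Rab33a, Rab39, Rab42, Tbc1d21 and Tbc1d30. Rab3b, Rab13, Rab32 and Rab36 passed with fewer than 9 arrays above the cutoff, and the other 75 had all 9 above it. A gene was called when its limma p, adjusted by Benjamini-Hochberg over all 13182 genes tested on the array, was under 0.05. Differences are given on the log2 scale with their standard error, and differences between groups rest on 3 arrays each.

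Against mock, miR-294 lowered more Rab and Tbc1d genes than it raised, and let-7c raised more than it lowered. With miR-294, 29 of 79 tested genes fell and 11 rose, while 41.9% of all tested genes were called, 21.1% lowered and 20.7% raised. With let-7c, 17 rose and 3 fell, while 28.7% of all tested genes were called, 13.9% raised and 14.8% lowered. The share of genes lowered by miR-294 was thus 36.7% in these families, and the share raised by let-7c was 21.5%. The median difference over the 79 genes was -0.05 with miR-294 and 0.06 with let-7c, next to 0.02 with either mimic over all tested genes. Both comparisons use the same mock arrays, so they are not independent of each other.

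The let-7c count depends on single arrays. It was 10, 11 or 9 raised genes without let-7c replicate 1, 2 or 3, and 10, 7 or 10 without mock replicate 1, 2 or 3. The miR-294 count was steadier, with 25 to 31 lowered genes and 9 to 11 raised genes when an array was left out. The replicate numbers were taken to pair the arrays of either mimic with those of mock, though not clearly for let-7c replicate 3. With the replicate number as a block, let-7c raised 21 and lowered 5, and miR-294 raised 13 and lowered 31.

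**Figure D1:**
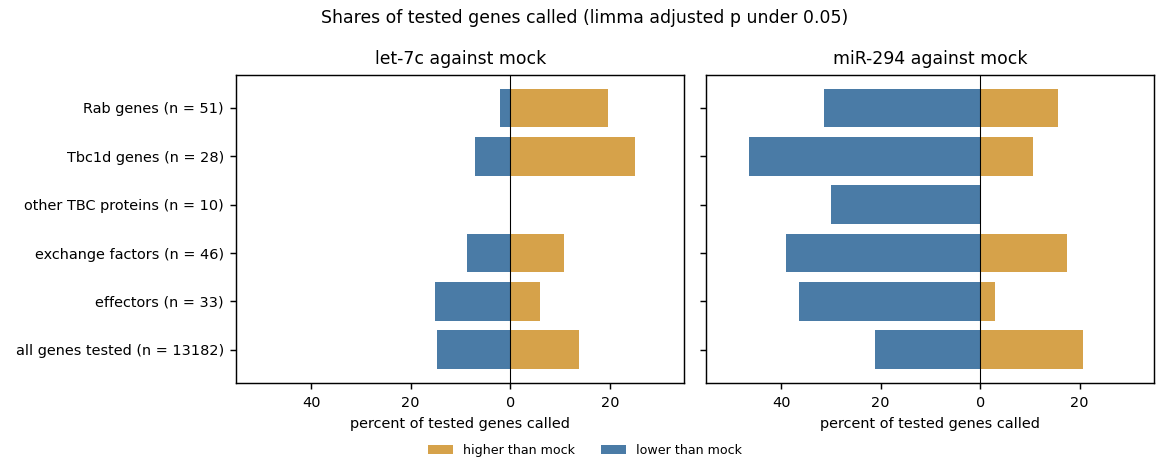
Bars give the percentage of tested genes called against mock with let-7c (left panel) and miR-294 (right panel), higher than mock to the right of 0 and lower than mock to the left, for the Rab genes, the Tbc1d genes, 3 lists of Rab regulators and effectors, and all 13182 tested genes. With miR-294 the lower share is 31.4% of Rab genes and 46.4% of Tbc1d genes, against 21.1% of all genes.

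The plot of shares sets the families beside the other parts of the Rab cycle. Among Rab genes, let-7c raised 10 and lowered 1 of 51, and miR-294 raised 8 and lowered 16. Among Tbc1d genes, let-7c raised 7 and lowered 2 of 28, and miR-294 raised 3 and lowered 13. The 10 Rab genes raised by let-7c became 6 without let-7c replicate 3 and 5 without mock replicate 1 or mock replicate 2, and the 7 Tbc1d genes raised became 2 without let-7c replicate 1 or mock replicate 2, 3 without let-7c replicate 3 or mock replicate 3, and 4 without let-7c replicate 2. The plot of single genes shows that the differences with miR-294 reach further from 0 than those with let-7c.

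**Figure D2:**
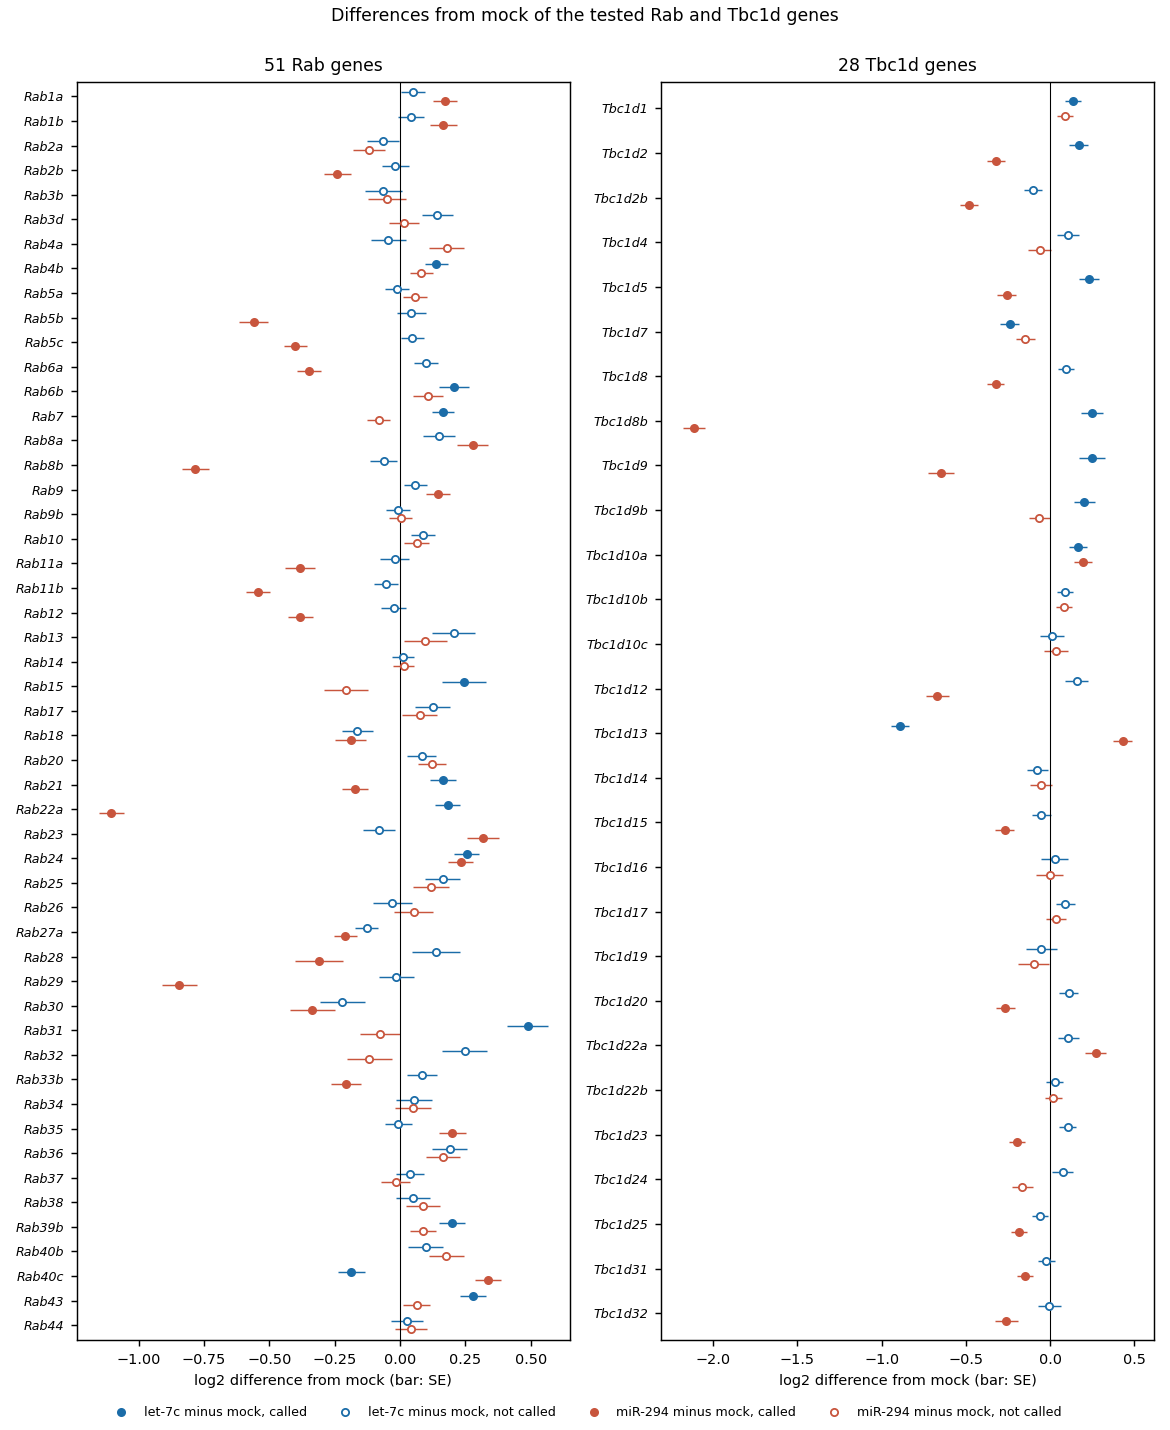
Each row is a tested gene (51 Rab genes left, 28 Tbc1d genes right), and points give the log2 difference from mock with its standard error, for let-7c in blue and miR-294 in red, filled where called. The scales of the panels differ; Tbc1d8b at -2.11 and Rab22a at -1.10 with miR-294 stand furthest from 0.

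The largest change in the families was that of Tbc1d8b, a TBC protein whose gene is mutated in an inherited human kidney disease. It read 7.58, 7.48 and 7.33 in the miR-294 arrays, against 9.55, 9.61 and 9.56 in the mock arrays. All miR-294 arrays lay far under all mock arrays. Tbc1d8b fell by 2.11 ± 0.06 with miR-294 (adjusted p = 4.93e-09), to 0.231 of the mock level. With let-7c it read 9.80, 9.90 and 9.77, above every mock array, a rise of 0.25 ± 0.06 (adjusted p = 0.0144) that was lost without let-7c replicate 2 (adjusted p = 0.0530).

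Early endosomes, the first station of material taken up by the cell, held the Rab with the largest fall. Of 9 tested Rab genes of this group, miR-294 lowered 4 (Rab5b, Rab5c, Rab21 and Rab22a) and raised Rab24, and let-7c raised 4 (Rab21, Rab22a, Rab24 and Rab31), of which 2 were called without mock replicate 1 (Rab24 and Rab31). As shares, 44.4% were lowered and 11.1% raised with miR-294, next to 21.1% and 20.7% of all tested genes. The share raised with let-7c was 44.4%, next to 13.9%. Both raised shares include Rab24, which the list used placed in this group though it is linked to autophagy. Rab22a, which acts between early and recycling endosomes, read 8.67, 8.71 and 8.74 with miR-294, against 9.75, 9.88 and 9.80 with mock. The groups were well apart, and Rab22a fell by 1.10 ± 0.05 (adjusted p = 3.91e-08), to 0.465 of mock. Rab22a and Tbc1d8b were the only members lowered by miR-294 at least 2-fold, as were 0.706% of all tested genes. In the let-7c arrays Rab22a read 9.96, 10.01 and 10.02, a rise of 0.18 ± 0.05 (adjusted p = 0.0145) that was lost without mock replicate 1 (adjusted p = 0.0605).

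Rab31, a close relative of Rab22a that acts between the trans-Golgi network and endosomes, had the largest rise with let-7c in the families. It read 9.89, 10.0017 and 10.17 with let-7c, against 9.41, 9.63 and 9.56 with mock. The let-7c arrays were all higher, although they were scattered, and the rise was 0.49 ± 0.08 (adjusted p = 0.00088). With miR-294, Rab31 read 9.39, 9.52 and 9.46, within or just under the mock values, and it was not called (adjusted p = 0.438). Rab24, linked to autophagy, rose with both mimics: it read 9.59, 9.52 and 9.53 with let-7c and 9.54, 9.45 and 9.59 with miR-294, against 9.28, 9.29 and 9.31 with mock. The rises were 0.26 ± 0.05 with let-7c (adjusted p = 0.00239) and 0.23 ± 0.05 with miR-294 (adjusted p = 0.00243).

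The Rab5 genes encode 3 closely related switches of early endosome fusion, and they did not move alike with miR-294. Rab5a read 11.37, 11.34 and 11.35 with miR-294, against 11.28, 11.34 and 11.26 with mock, and was not called (0.06 ± 0.05, adjusted p = 0.339). Rab5b read 10.10, 9.9999 and 10.0015 with miR-294, against 10.67, 10.54 and 10.58 with mock, and fell by 0.56 ± 0.06 (adjusted p = 1.97e-05). Rab5c read 10.10, 10.17 and 10.07 with miR-294, against 10.50, 10.53 and 10.51 with mock, and fell by 0.40 ± 0.04 (adjusted p = 3.57e-05). The arrays of Rab5b and Rab5c were thus apart from mock by group, whereas those of Rab5a overlapped. None of the 3 was called with let-7c, with differences of -0.01 for Rab5a, 0.04 for Rab5b and 0.05 for Rab5c.

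For Rab5b, Rab2a and Rab11b the brightest probe set, used here to stand for the gene, carries an ID whose neighbours in the table belong to another chromosome. The neighbours were the 5 named probe sets on each side by ID, and at least 7 of them lay on the gene's chromosome for the other 90 of 93 member probe sets. For the Rab5b probe set 10 lay on chromosome 2 and 0 on chromosome 10, where Rab5b is. For that of Rab11b 10 lay on chromosome 19 and 0 on chromosome 17, and for that of Rab2a 9 lay on chromosome 5 and 0 on chromosome 4. The dimmer probe set of each gene lies among neighbours of the gene's own chromosome. Read from that probe set, Rab5b fell by 0.53 ± 0.05 with miR-294 (adjusted p = 2.01e-05) and Rab2a was not called in any comparison. Rab11b read from it was not called with miR-294 (-0.09 ± 0.07, adjusted p = 0.341) and rose with let-7c (0.20 ± 0.07, adjusted p = 0.0493). That rise was not called when every probe set was tested (adjusted p = 0.0896). This Rab11b probe set averaged 7.71 over the 9 arrays, against 10.955 for the brighter one. With these probe sets miR-294 lowered 28 genes of the families and let-7c raised 18.

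Recycling, delivery to the cell surface and the cilium were served by 14 tested Rab genes. miR-294 lowered 4 (Rab8b, Rab11a, Rab11b and Rab12) and raised 3 (Rab8a, Rab23 and Rab35), and let-7c raised 2 (Rab4b and Rab15). As shares, 28.6% were lowered and 21.4% raised with miR-294, next to 21.1% and 20.7% of all tested genes. The share raised with let-7c was 14.3%, next to 13.9%, so these shares were near those of all genes. The rise of Rab4b, which acts in fast recycling, was 0.14 ± 0.04 (adjusted p = 0.0353) and was lost without any 1 of the 6 arrays other than mock replicate 2. Rab8b, which with Rab8a carries cargo to the plasma membrane and the primary cilium, read 8.99, 9.07 and 9.13 with miR-294, against 9.86, 9.90 and 9.79 with mock. It fell by 0.78 ± 0.05 (adjusted p = 9.08e-07), to 0.581 of mock, with a clear gap between the groups. Rab8a moved the other way: it read 10.30, 10.47 and 10.43 with miR-294, against 10.05, 10.20 and 10.11 with mock, a rise of 0.28 ± 0.06 (adjusted p = 0.00326). With let-7c neither was called, with differences of 0.15 for Rab8a (adjusted p = 0.0844; with the replicate block it was called, adjusted p = 0.0244) and -0.06 for Rab8b.

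Rab11a and Rab11b mark the recycling endosome, from which receptors return to the surface. Rab11a read 9.62, 9.48 and 9.52 with miR-294, against 9.89, 9.98 and 9.90 with mock, and fell by 0.38 ± 0.06 (adjusted p = 0.000291). Rab11b, on the probe set placed in doubt by its neighbours, read 10.58, 10.68 and 10.57 with miR-294, against 11.12, 11.20 and 11.14 with mock, and fell by 0.54 ± 0.05 (adjusted p = 4.82e-06), a call that its other probe set did not give. Rab12, which sends recycling cargo to lysosomes, fell by 0.38 ± 0.05 with miR-294 (adjusted p = 9.47e-05).

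Among the genes that rose were Rab23, a ciliary Rab that restrains Hedgehog signalling in the mouse, and Rab35, which acts in fast recycling and cytokinesis. Rab23 read 9.34, 9.45 and 9.42 with miR-294, against 9.03, 9.14 and 9.09 with mock, a rise of 0.32 ± 0.06 (adjusted p = 0.00172). Rab35 read 10.59, 10.63 and 10.55 with miR-294, against 10.35, 10.45 and 10.37 with mock, a rise of 0.20 ± 0.05 (adjusted p = 0.00947). In both genes the lowest miR-294 array was above the highest mock array. Rab15, a recycling Rab abundant in neurons, read 8.62, 8.47 and 8.47 with let-7c, against 8.36, 8.32 and 8.15 with mock. Its rise of 0.24 ± 0.08 (adjusted p = 0.0488) was lost whichever of the 6 arrays was left out (adjusted p = 0.0522 to 0.167). With miR-294 the Rab15 difference was -0.21 ± 0.08 (adjusted p = 0.0681), which was called with the replicate block (adjusted p = 0.00768).

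Transport from the endoplasmic reticulum (ER) through the Golgi was represented by 13 tested Rab genes. miR-294 lowered 5 (Rab2b, Rab6a, Rab18, Rab30 and Rab33b) and raised 2 (Rab1a and Rab1b), and let-7c raised 3 (Rab6b, Rab39b and Rab43). As shares, 38.5% were lowered and 15.4% raised with miR-294, next to 21.1% and 20.7% of all tested genes. The share raised with let-7c was 23.1%, next to 13.9%. Rab6a, which carries cargo from endosomes to the Golgi and from there to the ER, read 10.07, 10.01 and 10.10 with miR-294, against 10.43, 10.42 and 10.38 with mock. Its fall of 0.35 ± 0.05 (adjusted p = 0.000118) was the largest of the 5, and the falls of the other 4 were 0.19 to 0.34. The fall of Rab18, a Rab of the ER and lipid droplets, was lost without miR-294 replicate 2 or 3 or mock replicate 1 or 2 (adjusted p = 0.0544 to 0.0958). That of Rab33b, a Golgi Rab with a part in autophagy, was lost without miR-294 replicate 2 (adjusted p = 0.0516), which left 3 of the 5 falls.

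Rab1a and Rab1b drive the first step from the ER to the Golgi. Rab1a read 12.28, 12.30 and 12.26 with miR-294, against 12.09, 12.16 and 12.07 with mock, a rise of 0.17 ± 0.05 (adjusted p = 0.0113). Rab1b read 10.76, 10.71 and 10.78 with miR-294, against 10.57, 10.66 and 10.53 with mock, a rise of 0.17 ± 0.05 (adjusted p = 0.0227) that was lost without miR-294 replicate 1 or 3 or mock replicate 1 or 3 (adjusted p = 0.0538 to 0.0868). The miR-294 arrays of both genes were above all mock arrays by a small margin.

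The Golgi Rabs raised by let-7c were others. Rab43, which acts in traffic at the Golgi, read 7.42, 7.40 and 7.46 with let-7c, against 7.07, 7.15 and 7.21 with mock, a rise of 0.28 ± 0.05 (adjusted p = 0.00218). Rab6b, a relative of Rab6a that is abundant in neurons, read 8.58, 8.42 and 8.61 with let-7c, against 8.37, 8.31 and 8.30 with mock, a rise of 0.21 ± 0.06 (adjusted p = 0.0189). Rab39b, whose human gene is mutated in an inherited parkinsonism, read 7.25, 7.22 and 7.28 with let-7c, against 7.05, 6.96 and 7.14 with mock, a rise of 0.20 ± 0.05 (adjusted p = 0.0123). In each of these genes the let-7c arrays lay above the mock arrays. The call of Rab39b was lost without mock replicate 2 (adjusted p = 0.0549), and that of Rab6b without let-7c replicate 1 or 3 or mock replicate 2 or 3 (adjusted p = 0.0608 to 0.0733), so that 1 of the 3 was called without mock replicate 2.

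Late endosomes, lysosomes and related organelles had 6 tested Rab genes, of which miR-294 lowered Rab29 and raised Rab9, and let-7c raised Rab7. Each is 16.7% of the 6. Over all tested genes miR-294 lowered 21.1% and raised 20.7%, and let-7c raised 13.9%. Rab29, which in human cells recruits the kinase LRRK2 to Golgi and lysosomal membranes, read 7.23, 7.19 and 7.35 with miR-294, against 7.9976, 8.08 and 8.22 with mock. The groups were well apart, and Rab29 fell by 0.84 ± 0.07 (adjusted p = 3.58e-06), to 0.557 of mock. With let-7c it read 8.07, 8.17 and 8.02, inside the range of mock. Rab7, the switch of late endosome and lysosome fusion, read 10.65, 10.71 and 10.64 with let-7c, against 10.48, 10.49 and 10.54 with mock, a rise of 0.16 ± 0.04 (adjusted p = 0.0151) that was lost without let-7c replicate 2 or mock replicate 1 or 2 (adjusted p = 0.0502 to 0.0555). Rab9 rose by 0.14 ± 0.04 with miR-294 (adjusted p = 0.0235), a call lost without any 1 of the 6 arrays other than miR-294 replicate 3.

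Of 5 tested Rab genes of regulated secretion, limma called 0 with let-7c (1 was higher and 1 lower at an unadjusted p under 0.05) and Rab27a with miR-294. Among all tested genes, 28.7% were called with let-7c. miR-294 lowered 21.1% of them, near the 1 of 5 in this group. Rab27a fell by 0.21 ± 0.04 with miR-294 (adjusted p = 0.00302). This Rab, which docks melanosomes and other secretory organelles, had a let-7c difference of -0.13 ± 0.04 (adjusted p = 0.0515) that was called with the replicate block (adjusted p = 0.0499). The neuronal and exocrine Rab3a, Rab3c and Rab27b were among the dim genes. Among 4 tested Rabs of other or less known roles, miR-294 raised Rab40c and lowered Rab28, and let-7c lowered Rab40c. Each is 25.0% of the 4. Over all tested genes miR-294 raised 20.7% and lowered 21.1%, and let-7c lowered 14.8%. Rab28 fell by 0.31 ± 0.09 (adjusted p = 0.0175), and its call was lost when miR-294 replicate 3 or mock replicate 2 was left out.

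The TBC family holds many off-switches of the same cycle, and 13 of the 28 tested Tbc1d genes fell with miR-294. Members were taken by gene name, not by activity on a Rab. After Tbc1d8b the largest falls were those of Tbc1d12, Tbc1d9 and Tbc1d2b. Tbc1d12, which binds recycling endosomes, read 8.03, 8.01 and 7.78 with miR-294, against 8.59, 8.70 and 8.53 with mock, and fell by 0.67 ± 0.07 (adjusted p = 2.26e-05). Tbc1d2b read 7.98, 7.85 and 8.04 with miR-294, against 8.41, 8.47 and 8.44 with mock, and fell by 0.48 ± 0.05 (adjusted p = 3.94e-05). In both genes no miR-294 array reached the mock range. The let-7c difference of Tbc1d12 was 0.16 ± 0.07 (adjusted p = 0.112), called with the replicate block (adjusted p = 0.0499).

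Smaller falls with miR-294 included known partners of Rabs described above. Tbc1d20, which inactivates Rab1, fell by 0.27 ± 0.06 (adjusted p = 0.00288), and Tbc1d15, which acts on Rab7, fell by 0.27 ± 0.06 (adjusted p = 0.00246). Tbc1d25, which acts on Rab33b in autophagy, fell by 0.18 ± 0.05 (adjusted p = 0.00979). Tbc1d31 and Tbc1d32, both linked to the cilium and its base, fell by 0.15 ± 0.05 (adjusted p = 0.0316) and 0.26 ± 0.07 (adjusted p = 0.00964), and the call of Tbc1d31 was lost without miR-294 replicate 2 or any mock array. Tbc1d23, which captures vesicles at the trans-Golgi network, fell by 0.20 ± 0.05 (adjusted p = 0.00792).

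Only 3 Tbc1d genes rose with miR-294: Tbc1d13, Tbc1d22a and Tbc1d10a. Tbc1d22a, a Golgi protein, read 8.92, 9.05 and 9.11 with miR-294, against 8.72, 8.72 and 8.83 with mock, a rise of 0.27 ± 0.06 (adjusted p = 0.00497). Tbc1d10a, which acts on Rab27a and Rab35, was the only Tbc1d gene raised by both mimics. It read 8.67, 8.57 and 8.68 with let-7c and 8.73, 8.62 and 8.66 with miR-294, against 8.53, 8.51 and 8.38 with mock. The rises were 0.16 ± 0.06 with let-7c (adjusted p = 0.0452) and 0.20 ± 0.06 with miR-294 (adjusted p = 0.0150). The let-7c call was lost without let-7c replicate 1 or 3 or mock replicate 2 or 3 (adjusted p = 0.0728 to 0.165), and the miR-294 call without miR-294 replicate 1 (adjusted p = 0.0513) or mock replicate 3 (adjusted p = 0.0642).

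Tbc1d7 and Tbc1d13 were the Tbc1d genes lowered by let-7c. Tbc1d7, a subunit of the TSC complex that restrains the growth kinase mTORC1, read 7.31, 7.33 and 7.43 with let-7c, against 7.70, 7.56 and 7.53 with mock. The let-7c arrays were all lower, and the fall was 0.24 ± 0.06 (adjusted p = 0.00975). Tbc1d9b rose with let-7c, with readings of 8.87, 8.69 and 8.77, against 8.68, 8.49 and 8.55 with mock, and a difference of 0.20 ± 0.06 (adjusted p = 0.0307). That call was lost without let-7c replicate 1 or 3 or mock replicate 2 or 3 (adjusted p = 0.0685 to 0.121).

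Opposite calls with the 2 mimics were made for 8 genes of the 79, Rab21, Rab22a, Rab40c, Tbc1d2, Tbc1d5, Tbc1d8b, Tbc1d9 and Tbc1d13. Over all tested genes the share was 8.52%, near that of these families. In 6 of them let-7c was above and miR-294 below mock. Rab40c and Tbc1d13 ran the other way. The same direction with both mimics was called for Rab24 and Tbc1d10a, and 29 genes were called with neither mimic. For the same direction and for neither, shares over all tested genes were not computed.

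**Figure D3:**
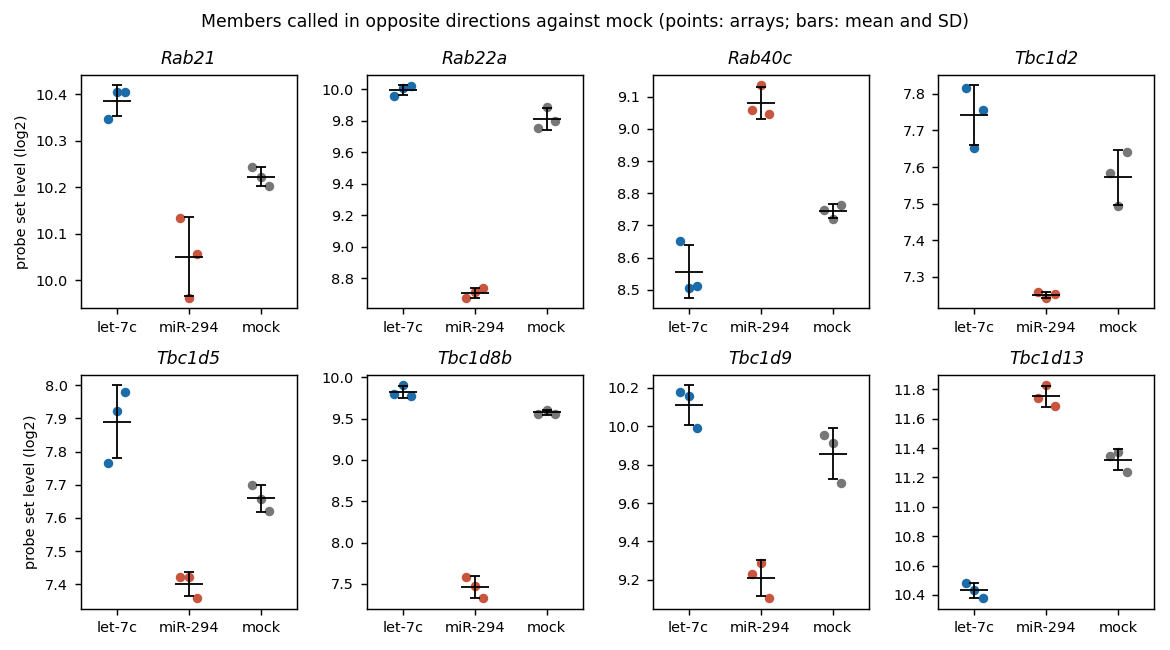
Panels show the probe set level (log2) of the 8 genes called in opposite directions, with a point for each of the 3 arrays per group and bars for the mean and SD; panels differ in scale. Tbc1d13 lies at 10.38 to 10.48 with let-7c and 11.69 to 11.83 with miR-294, around mock at 11.24 to 11.38, and the other genes except Rab40c have miR-294 lowest.

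Tbc1d13, which acts on Rab35 in the traffic of a glucose transporter, had the largest fall with let-7c and the largest rise with miR-294 in the families. It read 10.48, 10.43 and 10.38 in let-7c cells, 11.74, 11.83 and 11.69 in miR-294 cells and 11.35, 11.38 and 11.24 in mock cells. The 3 groups did not overlap. Tbc1d13 fell by 0.89 ± 0.05 with let-7c (adjusted p = 2.3e-06), to 0.540 of mock, and rose by 0.43 ± 0.05 with miR-294 (adjusted p = 9.76e-05), to 1.35 times mock.

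Rab40c, a Rab with a SOCS box that joins a ubiquitin ligase, had the same order of groups over a smaller range. It read 8.65, 8.51 and 8.51 in let-7c cells, 9.06, 9.14 and 9.05 in miR-294 cells and 8.75, 8.72 and 8.76 in mock cells. It fell by 0.19 ± 0.05 with let-7c (adjusted p = 0.0185) and rose by 0.34 ± 0.05 with miR-294 (adjusted p = 0.000349). The fall was lost without let-7c replicate 2 or 3 or mock replicate 1 or 3 (adjusted p = 0.0509 to 0.0666), and the rise was kept whichever array was left out.

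Tbc1d2 and Tbc1d5 both act on Rab7, and Tbc1d5 does so together with the retromer coat that retrieves cargo from endosomes. Tbc1d5 read 7.77, 7.92 and 7.98 in let-7c cells, 7.42, 7.42 and 7.36 in miR-294 cells and 7.70, 7.66 and 7.62 in mock cells. It rose by 0.23 ± 0.06 with let-7c (adjusted p = 0.0118) and fell by 0.26 ± 0.06 with miR-294 (adjusted p = 0.00401). Tbc1d2 followed the same order, with 7.82, 7.65 and 7.76 in let-7c cells, 7.26, 7.24 and 7.25 in miR-294 cells and 7.58, 7.49 and 7.64 in mock cells. Its fall with miR-294 was 0.32 ± 0.05 (adjusted p = 0.000719). Its rise with let-7c, 0.17 ± 0.05 (adjusted p = 0.0387), was lost without let-7c replicate 1 or 3 or mock replicate 1 or 2 (adjusted p = 0.0763 to 0.148).

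Tbc1d9 read 10.18, 10.16 and 9.99 in let-7c cells, 9.23, 9.29 and 9.10 in miR-294 cells and 9.95, 9.91 and 9.71 in mock cells. It fell by 0.65 ± 0.08 with miR-294 (adjusted p = 6.01e-05), far outside the spread of the arrays. It rose by 0.25 ± 0.08 with let-7c (adjusted p = 0.0316), a call lost without let-7c replicate 1 or 2 or mock replicate 2 or 3 (adjusted p = 0.0511 to 0.118). Rab21, which carries integrins through endosomes, read 10.35, 10.41 and 10.41 in let-7c cells, 10.13, 9.96 and 10.06 in miR-294 cells and 10.24, 10.22 and 10.20 in mock cells. Its rise of 0.16 ± 0.05 with let-7c (adjusted p = 0.0317) was lost without let-7c replicate 2 or 3 or any mock array (adjusted p = 0.0594 to 0.0921). Its fall of 0.17 ± 0.05 with miR-294 (adjusted p = 0.0174) was lost if miR-294 replicate 2 (adjusted p = 0.0738) or mock replicate 1 (adjusted p = 0.0563) was left out.

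Close relatives were set against each other in 12 pairs and 3 comparisons, 36 tests in all, by the difference of their responses. The smallest p that an exact permutation test of 3 against 3 arrays can give is 0.1, two-sided, so no pair could pass 0.05, and the adjusted p of each pair at that smallest value was 0.257. With miR-294, Tbc1d8 minus Tbc1d8b gave the largest difference of responses, 1.79 ± 0.09 (exact permutation p = 0.1). Rab8a minus Rab8b gave 1.06 ± 0.05 (exact permutation p = 0.1), and their arrays moved in opposite directions. Tbc1d9 minus Tbc1d9b gave -0.59 ± 0.10 (exact permutation p = 0.1).

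Tbc1d8 itself fell with miR-294, only by less than Tbc1d8b: it read 8.51, 8.55 and 8.56 with miR-294, against 8.87, 8.92 and 8.80 with mock, a fall of 0.32 ± 0.05 (adjusted p = 0.000334). Tbc1d9b was not called with miR-294, with readings of 8.56, 8.48 and 8.49, against 8.68, 8.49 and 8.55 with mock. The Rab5 genes differed by 0.62 ± 0.06 for Rab5a minus Rab5b and 0.46 ± 0.04 for Rab5a minus Rab5c, both with an exact permutation p of 0.1. Rab1a and Rab1b differed by 0.01 ± 0.03 (exact permutation p = 0.9). Tbc1d10b, Tbc1d10c and Tbc1d22b were called in no comparison, and Tbc1d22a minus Tbc1d22b gave 0.25 ± 0.10 with miR-294 (exact permutation p = 0.1).

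**Figure D4:**
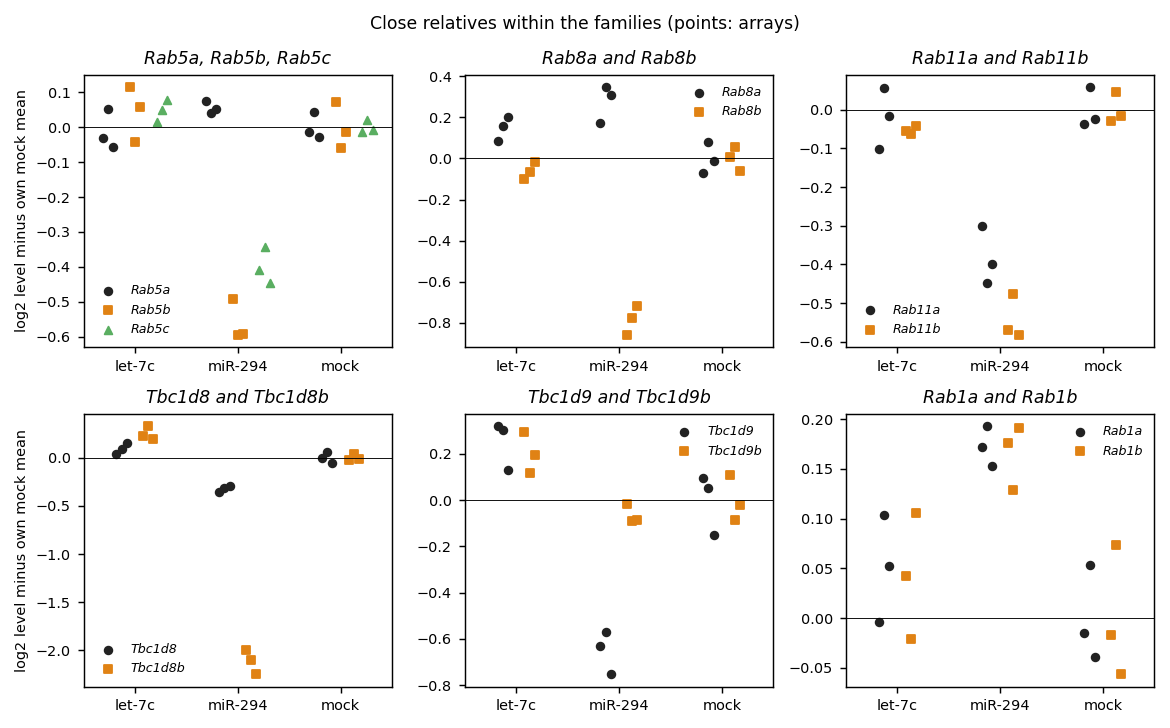
Each panel shows close relatives as the log2 level of each array minus the gene's own mock mean, so 0 is mock, with 3 arrays per group. Rab8b and Tbc1d8b drop with miR-294 while Rab8a rises and Tbc1d8 drops by less, Rab5b and Rab5c drop while Rab5a stays near 0, and Rab1a and Rab1b overlap; Rab11b is drawn from the probe set whose call its other probe set did not give.

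The plot of relatives shows the same values array by array. The arrays of a group stayed close together next to the gaps of the relatives that fell.

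The mimics were also compared directly, without the mock arrays in the difference. let-7c was above miR-294 for 32 of 79 genes and below for 7, while 50.8% of all tested genes were called, 26.2% higher and 24.5% lower with let-7c. The median difference was 0.08 over these genes and -0.01 over all tested genes. The count of 7 became 4 without let-7c replicate 1 or miR-294 replicate 2. Tbc1d8b was 2.36 ± 0.06 higher with let-7c (adjusted p = 1.74e-09), 5.14 times its miR-294 level, and Rab22a was 1.29 ± 0.05 higher (adjusted p = 9.97e-09), 2.44 times. They were the members at least 2-fold higher with let-7c, as were 1.23% of all tested genes. Tbc1d13 was the only one at least 2-fold lower, with a difference of -1.32 ± 0.05 (adjusted p = 1.88e-08), 0.40 of its miR-294 level, as were 0.402% of all tested genes.

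Next in size among the genes above their miR-294 level in let-7c cells were Tbc1d9 (0.90 ± 0.08, adjusted p = 2.61e-06), Rab29 (0.83 ± 0.07, adjusted p = 1.75e-06) and Tbc1d12 (0.83 ± 0.07, adjusted p = 2.14e-06). Rab8b (0.72 ± 0.05), Rab5b (0.60 ± 0.06), Rab31 (0.57 ± 0.08), Tbc1d2 (0.49 ± 0.05) and Rab11b (0.49 ± 0.05) followed, with adjusted p of 8.75e-05 or less. Rab11b read from its own-chromosome probe set differed by less, 0.29 ± 0.07 (adjusted p = 0.00456). The genes lower with let-7c beside Tbc1d13 were Rab40c (-0.52 ± 0.05), Rab23 (-0.40 ± 0.06), Rab4a (-0.22 ± 0.07), Rab35 (-0.21 ± 0.05), Tbc1d22a (-0.16 ± 0.06) and Rab1a (-0.12 ± 0.05). Rab4a, a Rab of fast recycling, read 9.40, 9.47 and 9.58 with let-7c, against 9.58, 9.81 and 9.74 with miR-294. Its call (adjusted p = 0.0148) was lost without let-7c replicate 1 or miR-294 replicate 2. Those of Rab1a and Tbc1d22a were lost without most single arrays.

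The rest of the Rab cycle was read from lists of other genes. Exchange factors, which switch Rabs on, had 46 tested genes, of which miR-294 lowered 18 and raised 8 and let-7c raised 5 and lowered 4. As shares, 39.1% were lowered and 17.4% raised with miR-294, next to 21.1% and 20.7% of all tested genes. The let-7c shares, 10.9% raised and 8.7% lowered, were under the 13.9% and 14.8% of all tested genes. Trappc1, a subunit of the TRAPP complexes that activate Rab1, read 8.58, 8.76 and 8.94 with let-7c, against 9.39, 9.59 and 9.47 with mock, and fell by 0.72 ± 0.08 (adjusted p = 0.000104). Dennd5a, an exchange factor of the DENN family, rose with let-7c by 0.46 ± 0.05 (adjusted p = 6.14e-05). With miR-294 the largest falls in the list were those of Dennd5b (0.69 ± 0.07), the DENN protein Sbf1 (0.59 ± 0.05) and the TRAPP subunit Trappc10 (0.57 ± 0.05), with adjusted p of 1.73e-05 or less. The 8 raised became 4 or 5 without miR-294 replicate 1 or 3 or mock replicate 1 or 3, and the 4 lowered by let-7c became 2 without let-7c replicate 1 or mock replicate 2 or 3.

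Effectors, which active Rabs recruit, had 33 tested genes. miR-294 lowered 12 and raised 1 of them, and let-7c raised 2 and lowered 5. As shares, 36.4% were lowered and 3.03% raised with miR-294, next to 21.1% and 20.7% of all tested genes. The let-7c shares were 6.06% raised and 15.2% lowered, next to 13.9% and 14.8%. Rufy2, an endosomal effector, fell by 0.91 ± 0.05 with miR-294, Golga2, the Golgi tether GM130 bound by Rab1, by 0.76 ± 0.06, and Plekhm1, a lysosomal effector of Rab7, by 0.69 ± 0.05, with adjusted p of 3.2e-06 or less. Golga2 read 8.35, 8.52 and 8.48 with miR-294, against 9.15, 9.29 and 9.18 with mock, so the groups were clearly apart. With let-7c, the Rab11 effector Rab11fip4 fell by 0.32 ± 0.05 (adjusted p = 0.00123), the motor adaptor Hook1 fell by 0.22 ± 0.05 (adjusted p = 0.00561), and the adaptor Bicdl1 rose by 0.26 ± 0.05 (adjusted p = 0.00265). The 5 lowered by let-7c became 3 without mock replicate 3, and the 2 raised became 1 without let-7c replicate 3 or any mock array.

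Of 10 TBC proteins with other names, limma called 0 with let-7c (4 were higher at an unadjusted p under 0.05) and 3 lower with miR-294. The share lowered with miR-294 was 30.0%, next to 21.1% of all tested genes, and let-7c called 28.7% of all tested genes. Rabgap1 read 10.32, 10.31 and 10.29 with miR-294, against 10.84, 10.86 and 10.88 with mock, and fell by 0.55 ± 0.04 (adjusted p = 2.06e-06). Rabgap1l fell by 0.35 ± 0.06 (adjusted p = 0.0011) and Sgsm1 by 0.27 ± 0.07 (adjusted p = 0.0112). Both subunits of the Rab3 GAP complex fell with miR-294, Rab3gap1 by 0.19 ± 0.05 (adjusted p = 0.00745) and Rab3gap2 by 0.18 ± 0.05 (adjusted p = 0.0128), and the call of Rab3gap2 was lost if miR-294 replicate 3 (adjusted p = 0.0511) or mock replicate 2 (adjusted p = 0.0502) was left out.

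Of 6 tested genes that attach the lipid anchor of Rabs or extract Rabs from membranes, limma called 2 higher and 0 lower with either mimic (1 was lower at an unadjusted p under 0.05 with each). The raised share was 33.3% with either mimic, next to 13.9% of all tested genes with let-7c and 20.7% with miR-294. The subunits of the Rab geranylgeranyl transferase rose with miR-294, Rabggtb by 0.40 ± 0.05 (adjusted p = 0.000123) and Rabggta by 0.31 ± 0.07 (adjusted p = 0.00558). The Rab escort proteins rose with let-7c, Chml by 0.34 ± 0.07 (adjusted p = 0.00462) and Chm by 0.22 ± 0.06 (adjusted p = 0.0151), the call of Chm being lost without mock replicate 1 or 3 (adjusted p = 0.0572 and 0.0573). Rabggtb read 11.50, 11.59 and 11.45 with miR-294, against 11.06, 11.18 and 11.10 with mock.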

How the data were processed

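RNA of 9 samples was measured on 1-colour arrays. The deposited values, taken as log2, are 1 per probe set and array; per the submitters' processing notes the authors used GCRMA, which corrects background, normalizes and summarises probes (version: not given in the sources used here). That scale was inferred from their range, and the values were used with no further normalization. Array annotation gave 1 symbol for 21789 of 35557 probe sets, 1621 had several and 12147 none, and all 93 member probe sets matched RefSeq by gene ID. A gene was its brightest probe set over the 9 arrays. All tests across genes came from 1 fit of 3 group means to the 9 arrays in limma 3.58.1 (R 4.3.3, lmFit and eBayes, no trend), two-sided, with 6 residual degrees of freedom and Benjamini-Hochberg adjustment over 13182 genes. On simulated data the fit recovered 34% of log2 changes of 0.25, 70% of 0.5 and 94% of 1, with 5 false calls. Far fewer genes changed in that simulation than were called in these data.

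Members and lists were chosen with earlier results of these data known. Named in each comparison were the up to 10 called members with the largest rise and the largest fall, all members with opposite calls, fixed families of relatives, and up to 3 called genes per other list (1 exchange factor is not reported here); members named beyond this complete a count or are known partners and were chosen after their values were seen. The lists held 50 exchange factors (48 matched), 40 effectors (38), 10 other TBC proteins (10), 7 lipid anchor and GDI genes (6) and 2 Rab3 GAP subunits (2).

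Replicates are biological per the labels, and p-values measure only the spread between these arrays. Same-numbered arrays deviated together with mock (correlations of deviations 0.133 to 0.418 for let-7c, 0.272 to 0.363 for miR-294). These pairs were taken as paired by number. The pairing was not clear for let-7c replicate 3, with 0.149 for mock replicate 2 and 0.133 for mock replicate 3. Between let-7c and miR-294, same-numbered arrays correlated at 0.215, 0.248 and 0.0285 for numbers 1, 2 and 3. The last was under the 0.071 of let-7c replicate 3 with miR-294 replicate 2, so that pair was not clear either. The main fit did not use the pairing, while the replicate block used the number across all 3 groups. No pair of arrays shared more than 0.0309% identical values. The number of arrays limits the precision. Alternatives covered the filter, the choice of probe set, the normalization, the variance prior, the arrays fitted, a replicate block and leaving out each array.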

Additional observations from a re-analysis of the deposited data

How the results depend on the processing

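No gene was called in one direction by the main fit and in the other by an alternative. With every probe set tested, let-7c called 13 of the genes against mock and raised 10; with no filter on dim probe sets it raised 11. It lowered 5 with an intensity trend and robust prior and 5 with the replicate block. Leaving out an array gave 10 to 13 called, 7 to 11 raised and 2 to 3 lowered for let-7c against mock, and 4 to 7 lower for let-7c against miR-294. Of the calls, 6 of 20 with let-7c, 31 of 40 with miR-294 and 35 of 39 between the mimics were made under every alternative. The replicate block lost 0 calls, and against mock it added 6 with let-7c and 4 with miR-294. Those with let-7c not given above were rises of Rab3d (adjusted p = 0.0466) and Rab36 (0.0409) and a fall of Rab30 (0.00789). Rab36 was above the filter cutoff on 2 let-7c, 2 miR-294 and 0 mock arrays, so it was tested only through the mimic arrays. Those with miR-294 were rises of Rab4a (0.0179) and Rab40b (0.0224) and a fall of Tbc1d24 (0.00847). Between the mimics the block added 4. The own-chromosome probe sets were an alternative chosen after seeing the data. They removed the miR-294 call of Rab11b (0.341) and added a let-7c call of it (0.0493). Its let-7c difference was -0.05 and not called in the main fit, and 0.20 with that probe set. With every probe set tested, that probe set was not called with let-7c (0.0896). Counts over all genes stayed within 1.5 times in every alternative run. The 3 arrays a group limit what can be called, and the 10 dim genes were tested only with no filter or not at all.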
